A study of Homo sapiens with 4 samples.

Results

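The 10 genes described here encode chaperones of the endoplasmic reticulum (ER) and components of the unfolded protein response (UPR). They were taken by symbol from the deposited table of read counts: HSPA5, HSP90B1, PDIA4, CALR, HYOU1, DNAJB9, SDF2L1, HERPUD1, XBP1 and ERN1. Each symbol had 1 row, so these were 10 of 26364 gene rows, and all 10 passed the filter of 10 counts in 2 libraries that left 14024 genes for testing. There were 4 RNA libraries, 1 for each combination of cell line and treatment. SW480 and SW620 are established human colorectal cancer (CRC) lines, and each was sequenced as control cells and as SHMT2-knockdown cells. SHMT2 is the mitochondrial serine hydroxymethyltransferase, which turns serine into glycine and a one-carbon unit. In the study's system a doxycycline-inducible lentiviral shRNA lowers SHMT2. The labels call the other libraries control and the study calls its comparator control shRNA cells, and neither says whether those cells carried the inducible vector or received doxycycline, nor which of the study's hairpins was sequenced. No group had a replicate library within a line, so a culture, a line and a treatment given once cannot be told apart inside a single line.

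Totals ran from 5530129 to 13774288 counts, with a knockdown to control depth ratio of 0.671 for SW480 and 2.49 for SW620. The knockdown left 11.2% of SHMT2 transcript for SW480 and 6.92% for SW620. Of 8 colorectal epithelial markers 7 were tested, and their summed level was 5399 to 10490 CPM (counts scaled to a common library size), against 6.97 to 21.2 CPM for 5 fibroblast markers, at most 1.28 CPM for 5 leukocyte markers and at most 2.72 CPM for 4 endothelial markers. The epithelial marker VIL1 was close to 0 in SW480, LGALS4 was at most 0.595 CPM in any library, and CDX2 was at 9.9 to 20.8 CPM. Most of the epithelial sum came from KRT8, KRT18 and KRT19. With the knockdown the epithelial sum went from 7012 to 5399 CPM in SW480 and from 10490 to 9519 CPM in SW620. In edgeR's quasi-likelihood test over both lines, KRT8 and KRT18 fell and CDH1 rose at an adjusted p under 0.05. On the log2 scale KRT8 differed by -0.46 in SW480 and -0.21 in SW620, KRT18 by -0.53 and -0.16, and CDH1 by 0.38 and 0.51. The part of this in the results below was not tested.

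Secreted and membrane proteins fold in the ER, where HSPA5 (BiP) and HSP90B1 (GRP94) hold unfolded chains, calreticulin (CALR) binds glycoproteins and protein disulfide isomerases such as PDIA4 form disulfide bonds. When unfolded protein accumulates, 3 sensors in the ER membrane start the UPR: IRE1 (gene ERN1), ATF6 and PERK (gene EIF2AK3). IRE1 splices the XBP1 transcript so that an active transcription factor is made, ATF6 is cut in the Golgi to release a transcription factor, and PERK slows translation and raises ATF4. ATF6 and XBP1 switch on chaperone genes through the ER stress response element (ERSE) and its relative ERSE-II, in which a box for the factor NF-Y and a CCACG box are set at a fixed distance. The read counts are per gene, so splicing of XBP1 and the proteins themselves were not measured here.

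The elements are shown because they are what most of these genes share in sequence. RefSeq promoters on GRCh38.p14, from 250 bases before to 50 after the annotated start, were searched on both strands, and all 10 genes matched by symbol, with 12 promoters among them because PDIA4 and XBP1 have 2. The ERSE was searched as CCAAT, any 9 bases and CCACG. It was present in 27 of 35116 promoters (0.0769%), while 4 of the 10 genes had it. Here and below the share is per promoter and the count per gene. Both elements are described for chaperone genes, as given above, so the counts are a description and not a test. Read in the direction of the element, with the fixed letters in capitals, the ERSE copies were as follows.
HSPA5, 66 to 48 bases before the start, chr9:125241391-125241409: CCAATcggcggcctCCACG
HSP90B1, 194 to 176 bases before the start, chr12:103930216-103930234: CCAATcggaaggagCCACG
HSP90B1, 89 to 71 bases before the start, on the opposite strand, chr12:103930321-103930339: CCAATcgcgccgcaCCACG
CALR, 225 to 207 bases before the start, on the opposite strand, chr19:12938384-12938402: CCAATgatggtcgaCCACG
XBP1, 52 to 34 bases before the start, chr22:28800603-28800621: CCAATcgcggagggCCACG

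The ERSE-II was searched as ATTGG, any base and CCACG, and was present in 19 promoters (0.0541%), while 3 of the 10 genes had it. Its copies are given in the same way.
HERPUD1, 117 to 107 bases before the start, chr16:56932025-56932035: ATTGGgCCACG
HYOU1, 185 to 175 bases before the start, on the opposite strand, chr11:119057380-119057390: ATTGGaCCACG
HYOU1, 79 to 69 bases before the start, on the opposite strand, chr11:119057274-119057284: ATTGGaCCACG
SDF2L1, 188 to 178 bases before the start, on the opposite strand, chr22:21642114-21642124: ATTGGtCCACG

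In total 7 of the 10 genes had one element or the other, and none had both. PDIA4, DNAJB9 and ERN1 had no match to these letters in this window, which says nothing about their control. The core of the UPR element, TGACGTGG, was in 256 promoters (0.729%) and among these genes in HYOU1 alone, 188 to 181 bases before the start, where it overlapped the farther ERSE-II. The short boxes alone were common: CCAAT was in 34.6% of all promoters and in 10 of the 10 genes, and CCACG was in 38.1% and in 9 of the 10. A match is a run of letters and was not tested as a binding site.

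**Figure D1:**
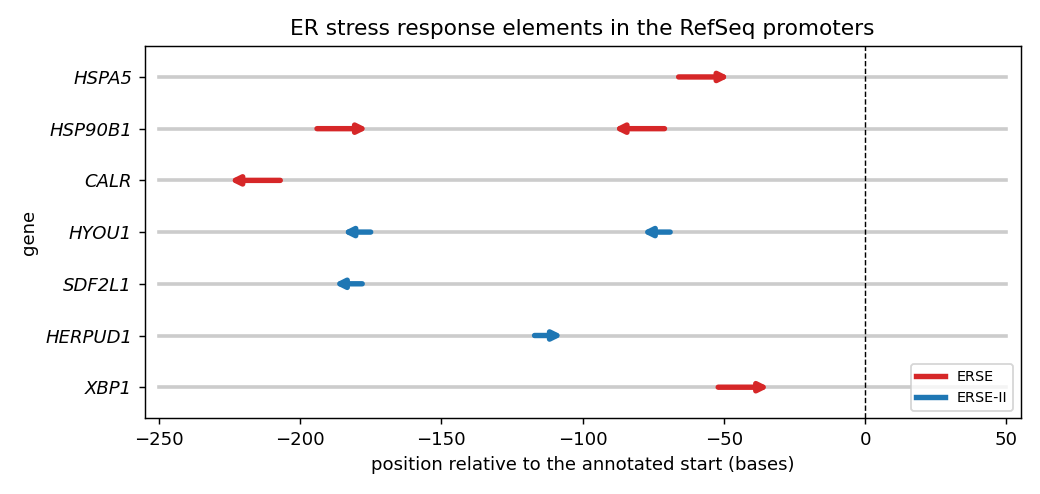
Positions of ERSE (red) and ERSE-II (blue) matches in the promoters of the 7 genes that had one, drawn to scale from 250 bases before to 50 after the annotated start (dashed line), with arrows pointing in the direction of the element. The HSPA5 and XBP1 elements lie nearest the start, 66 and 52 bases before it.

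The bases upstream of 4 starts are printed as context for the results that follow. HSPA5 is the classical UPR target, HERPUD1 is, of the 3 ERSE-II genes among the 10, the one whose knockdown values differed most between the lines, HYOU1 is the one of those 3 whose level differed most between the lines, and XBP1 was the one gene here that was higher in SW620. Each run is the 250 bases before the start in the direction of the gene, with ERSE or ERSE-II letters in capitals.
HSPA5, minus strand, chr9:125241344-125241593: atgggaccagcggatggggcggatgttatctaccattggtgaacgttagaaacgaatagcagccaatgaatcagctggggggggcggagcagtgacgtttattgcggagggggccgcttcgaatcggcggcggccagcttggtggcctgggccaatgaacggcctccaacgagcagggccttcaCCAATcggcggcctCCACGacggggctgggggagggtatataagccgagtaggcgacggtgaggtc
HERPUD1, plus strand, chr16:56931892-56932141: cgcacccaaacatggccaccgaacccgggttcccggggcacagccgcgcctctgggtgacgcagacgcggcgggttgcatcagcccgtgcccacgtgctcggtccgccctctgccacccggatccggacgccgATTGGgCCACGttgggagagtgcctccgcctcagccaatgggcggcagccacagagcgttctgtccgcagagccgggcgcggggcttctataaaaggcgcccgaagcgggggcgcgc
HYOU1, minus strand, chr11:119057206-119057455: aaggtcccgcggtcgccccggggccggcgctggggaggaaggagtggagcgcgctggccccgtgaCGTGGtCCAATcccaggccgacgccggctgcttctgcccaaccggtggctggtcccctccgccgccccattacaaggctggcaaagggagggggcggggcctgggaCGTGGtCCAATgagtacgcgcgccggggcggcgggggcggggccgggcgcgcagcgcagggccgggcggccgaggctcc
XBP1, minus strand, chr22:28800570-28800819: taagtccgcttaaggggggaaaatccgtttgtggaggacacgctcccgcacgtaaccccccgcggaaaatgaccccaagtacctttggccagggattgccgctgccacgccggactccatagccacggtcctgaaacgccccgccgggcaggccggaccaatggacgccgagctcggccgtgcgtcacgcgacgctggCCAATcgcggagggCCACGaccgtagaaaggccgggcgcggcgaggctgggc

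The levels of the 10 genes spanned a wide range. Divided by the length of the longest protein-coding transcript in GENCODE 29, the mean over the 4 libraries was 512 CPM per kilobase for CALR, 300 for HSP90B1, 209 for HSPA5, 122 for PDIA4 and 64.1 for HYOU1. It was 51.6 CPM per kilobase for XBP1, 48.1 for SDF2L1, 17 for HERPUD1, 3.46 for DNAJB9 and 1.47 for ERN1. The major lumenal chaperones therefore stood at the top and the sensor ERN1 at the bottom. Over the libraries, HSP90B1 overlapped HSPA5, XBP1 overlapped both HYOU1 and SDF2L1, and DNAJB9 reached down to the level of ERN1 (1.62 against 1.40 to 1.63 CPM per kilobase), while the other neighbours in this order did not overlap. The transcripts actually used in these cells are not known from the counts.

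The first comparison was between SHMT2-knockdown and control cells over both lines. None of the 10 genes passed the test. With the limit at an adjusted p of 0.05, 0 of the 10 were lower and 0 higher, beside 1.66% of all genes tested. At an unadjusted p under 0.05 the count was again 0 by edgeR's quasi-likelihood test and 0 by the DESeq2 Wald test, beside 9.06% of all genes tested with edgeR. The log2 fold changes ran from -0.25 for SDF2L1 to 0.43 for DNAJB9, with a median of 0.02, and the median of all genes tested was 0.01. Summed, the 10 genes took 0.404% of the counts of the SW480 control and 0.409% of the SW480 knockdown, against 0.294% and 0.296% for the SW620 pair.

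Among the chaperones that bind unfolded chains, HSPA5 counted 9366 reads for the SW480 control, 6393 for the SW480 knockdown, 3377 for the SW620 control and 9478 for the SW620 knockdown. Scaled for depth, these were 975, 964, 619 and 705 CPM. The 2 treatments lay close together in SW480, and the knockdown library was the higher in SW620. Over both lines its log2 fold change was 0.08, with a 95% interval of -0.10 to 0.27 (adjusted p = 0.944), or between 0.932 and 1.21 times the control. In the same order of libraries, HSP90B1 was at 1015, 1041, 697 and 680 CPM, with no shared direction. Its log2 fold change was 0.0005, with an interval of -0.18 to 0.19 (adjusted p = 1.0), so changes beyond 0.880 or 1.14 times lay outside the interval.

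HYOU1, a large HSP70-like protein that acts as a nucleotide exchange factor for HSPA5, was at 379 and 398 CPM in SW480 and at 188 and 196 in SW620, with control first. Its log2 fold change of 0.06 had an interval of -0.15 to 0.28. CALR was at 1061 and 977 CPM in SW480 and at 944 and 917 in SW620. It was the lower in the knockdown in both lines, by 0.12 and 0.04 on the log2 scale, and over both its log2 fold change was -0.08 (interval -0.26 to 0.10). PDIA4 was at 396 and 403 CPM in SW480 and at 322 and 299 in SW620, with a log2 fold change of -0.04 (interval -0.25 to 0.16).

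The co-chaperones and the degradation factor were measured with fewer counts and wider intervals. DNAJB9 (ERdj4), a J-domain partner of HSPA5 that restrains IRE1, had 114 and 93 counts in SW480 and 24 and 98 in SW620, which were 11.9, 14.0, 4.4 and 7.29 CPM. Its level was higher in the knockdown in both lines, and its log2 fold change of 0.43 had an interval of -0.10 to 0.95 (adjusted p = 0.722). SDF2L1, which works with J-domain partners of HSPA5, was at 51.4 and 38.2 CPM in SW480 and at 39.2 and 37.8 in SW620. Its control libraries both lay above its knockdown libraries. How many of all genes tested are separated in this way was not counted, so this is a description only. Its log2 fold change was -0.25, with an interval of -0.52 to 0.03, and the smallest unadjusted p of the 10 genes, 0.0838 (adjusted p = 0.661, both from edgeR's quasi-likelihood test). HERPUD1, an ER membrane protein that recruits substrates for degradation, was at 55.4 and 52.8 CPM in SW480 and at 40.5 and 52.0 in SW620. Its log2 fold change was 0.14 (interval -0.13 to 0.41).

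The signalling genes XBP1 and ERN1 did not pass either. XBP1 was at 70.9 and 69.5 CPM in SW480 and at 117 and 125 in SW620, and its log2 fold change was 0.03 (interval -0.21 to 0.28). ERN1 had 123 and 76 counts in SW480 and 60 and 150 in SW620, or 12.8, 11.5, 11 and 11.2 CPM. Its log2 fold change was -0.07, and the interval of -0.54 to 0.40 was wide for so few counts. The sensors of the other arms gave similar values: ATF6 had a log2 fold change of 0.06 (adjusted p = 0.98) and EIF2AK3 of 0.01 (adjusted p = 0.999).

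**Figure D2:**
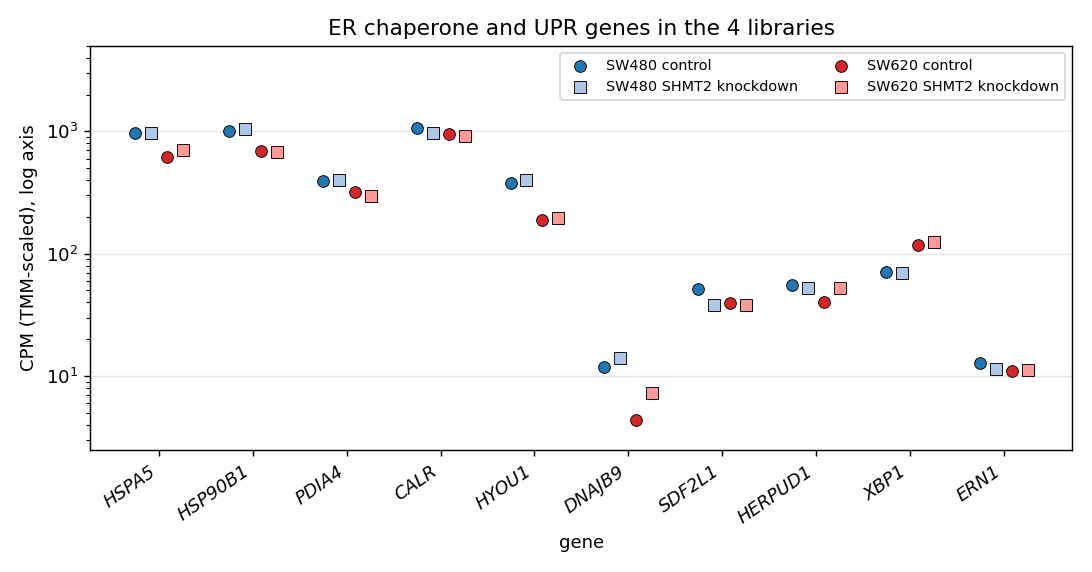
TMM-scaled CPM of the 10 genes on a log axis, with 1 point per library (circles, control; squares, SHMT2 knockdown; blue shades, SW480; red shades, SW620). Both SW620 points lie below both SW480 points for every gene but SDF2L1, where they overlap, and XBP1, where they lie above. Within a line the treatments lie farthest apart for DNAJB9 in SW620 (4.4 against 7.29 CPM).

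Within a single line there was 1 library per treatment, so the intervals below are exact binomial ones for counting error and carry no test. In SW620, HSPA5, HERPUD1 and DNAJB9 were higher in the knockdown beyond this interval. How many of all genes tested lie beyond such an interval was not counted, so the values describe these libraries only. HSPA5 differed by 0.19 on the log2 scale (0.13 to 0.24), HERPUD1 by 0.36 (0.14 to 0.58) and DNAJB9 by 0.73 (0.07 to 1.44). In SW480 the same 3 genes had differences of -0.02, -0.07 and 0.24, each with an interval that held 0. PDIA4 was lower in SW620 by 0.11 on the log2 scale (-0.19 to -0.03), at 0.02 in SW480. In SW480, SDF2L1 had a difference of -0.43 (-0.65 to -0.21) and CALR one of -0.12 (-0.17 to -0.07), while in SW620 these were -0.06 and -0.04 with intervals that held 0. The gap between the lines was not tested, since no residual degree of freedom is left for it, and the lines also differ in the depth ratio of the 2 treatments given above. For HERPUD1 the gap was 0.43, with a standard error of 0.15 from counting alone, and for HSPA5 it was 0.20 with a standard error of 0.04. Thinned to a common 5530129 counts, the libraries gave no call among the 10 genes for the knockdown over both lines. That fit does not test the gap between the lines.

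**Figure D3:**
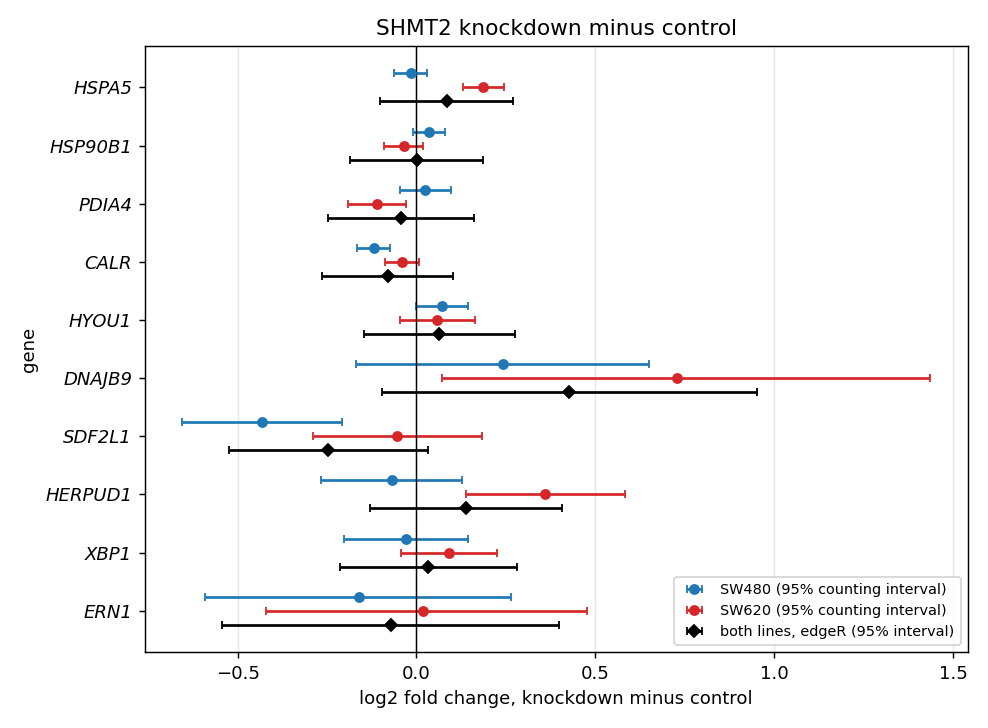
Log2 fold change of SHMT2 knockdown minus control for the 10 genes within SW480 (blue) and SW620 (red), with 95% counting intervals, and over both lines (black diamonds), with 95% intervals from edgeR. Every black interval crosses 0. The counting intervals of HSPA5, HERPUD1 and DNAJB9 in SW620 lie right of 0. Those of PDIA4 in SW620 and of SDF2L1 and CALR in SW480 lie left of 0.

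The second comparison was between the cell lines, over both treatments in the same fit. Among the 10 genes, SW620 had 5 that passed as lower and 1 as higher. This was 6 of 10, beside 63.6% of all genes tested, of which 31.3% were lower and 32.3% were higher in SW620, so the count is near the background and the named values are a description of the 2 lines. Each line gave 2 libraries, and line and culture cannot be told apart.

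HYOU1 was lower in SW620 by 1.02 on the log2 scale (standard error 0.11, adjusted p = 4.48e-20), with -1.01 between the control libraries and -1.03 between the knockdown libraries. DNAJB9 was lower by 1.14 (standard error 0.27, adjusted p = 5.48e-05), on the low counts given above, and the DESeq2 Wald test did not call it (adjusted p = 0.0591). HSP90B1 was lower by 0.58 (adjusted p = 3.97e-09), HSPA5 by 0.55 (adjusted p = 2.3e-08) and PDIA4 by 0.37 (adjusted p = 0.00101). In these 5 genes both SW620 libraries lay below both SW480 libraries. The same held for CALR, HERPUD1 and ERN1, which did not pass. How many of all genes tested are separated in this way was not counted.

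XBP1 went the other way and was higher in SW620 by 0.78 on the log2 scale (standard error 0.13, adjusted p = 2.84e-09), or 1.72 times. The difference was 0.72 between the control libraries and 0.84 between the knockdown libraries. The line with more XBP1 transcript thus had less transcript of HSPA5, HSP90B1, HYOU1, DNAJB9 and PDIA4. A processed pseudogene, XBP1P1, is annotated in GENCODE 29, and whether reads were shared with it is not known from the counts. The remaining 4 genes did not pass: the log2 differences were -0.13 for CALR (interval -0.31 to 0.05), -0.20 for SDF2L1 (-0.48 to 0.08), -0.23 for HERPUD1 (-0.49 to 0.04) and -0.13 for ERN1 (-0.59 to 0.34). For HERPUD1 and SDF2L1 the line difference was -0.45 and -0.39 between the control libraries and -0.02 for both between the knockdown libraries. Of the other sensors, ATF6 was lower in SW620 by 0.37 (adjusted p = 0.00918) and EIF2AK3 had a difference of -0.23 (adjusted p = 0.285).

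**Figure D4:**
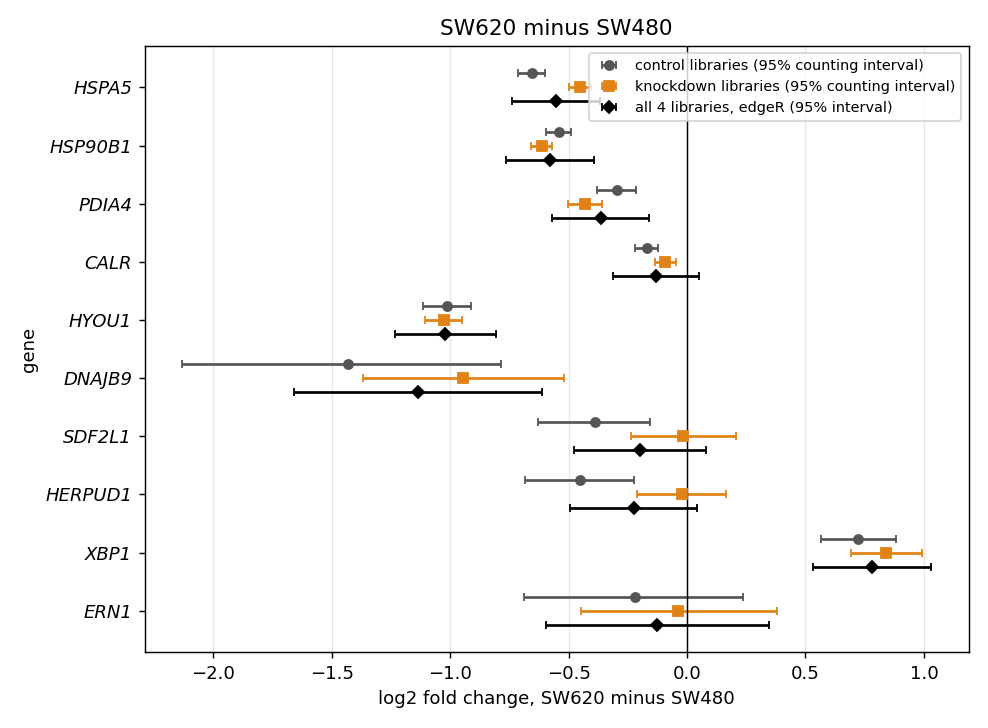
Log2 fold change of SW620 minus SW480 for the 10 genes between the control libraries (grey) and between the knockdown libraries (orange), with 95% counting intervals, and over all 4 libraries (black diamonds), with 95% intervals from edgeR. HSPA5, HSP90B1, PDIA4, HYOU1 and DNAJB9 lie left of 0 throughout and XBP1 lies right of 0, while HERPUD1 and SDF2L1 lie left of 0 between the control libraries and near 0 between the knockdown libraries.

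The pattern of HSPA5 over the 4 libraries was set beside that of every tested gene with a mean of at least 10 CPM, 10185 genes in all, by the Euclidean distance of centred log2 CPM. The 5 nearest were ASH1L, CCDC71, MINA, SKI and PIP5K1A, at distances of 0.0359 to 0.0424. None of these is on the lists of ER genes used here. HSP90B1 ranked 243 with a distance of 0.163 and PDIA4 ranked 949. Farther off were HERPUD1 (rank 1389), ERN1 (2324), CALR (2363), HYOU1 (2531) and SDF2L1 (2607), while XBP1 ranked 7956 with a distance of 1.34. DNAJB9 was under the level used. With 4 libraries this is a description of shape, and many genes lie close by it.

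Beyond the 10 genes, 5 lists of ER genes held 100 genes, these 10 included, and 98 of them were tested: sensors and transcription factors, chaperones and co-chaperones, disulfide enzymes, ER-associated degradation (ERAD), and translocation with N-glycosylation. With the knockdown, 3 of the 98 passed as lower and 0 as higher, beside 164 lower and 69 higher of all 14024 genes (1.66%), and the median log2 fold change was 0.04, beside 0.01 for all genes tested. The medians of the lists ran from 0.02 for the 12 tested sensors and transcription factors to 0.06 for the 26 genes of ERAD and the 26 of translocation with N-glycosylation. No sensor, chaperone or disulfide enzyme was called. Nearest was DNAJB11 (ERdj3), a J-domain partner of HSPA5 named here after its value was seen, at 90.0 and 59.7 CPM in SW480 and at 95.3 and 81.5 in SW620. Its knockdown library was the lower in each line, and its log2 fold change was -0.40 (adjusted p = 0.0805, and 0.0471 after thinning of all libraries to 5530129 counts). In both lines at once, 18 of the 98 had lower and 35 had higher values in the knockdown library, beside 3468 and 3792 of the 14024 genes.

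ERAD had 2 of its 26 genes lower and none higher. ERLIN2, part of a membrane complex that delivers the IP3 receptor and the sterol synthesis enzyme HMG-CoA reductase for degradation, had 352 and 177 counts in SW480 and 261 and 257 in SW620, which were 36.6, 26.7, 47.9 and 19.1 CPM. Both knockdown libraries lay below both controls. It fell by 0.90 on the log2 scale (standard error 0.16, adjusted p = 4.95e-06), by 0.46 in SW480 and by 1.32 in SW620. Its adjusted p was 0.0509 with a filter of 50 counts in 2 libraries. DERL1, a derlin that helps move substrates out of the ER membrane, was at 103 and 68.0 CPM in SW480 and at 59.8 and 36.0 in SW620. It fell by 0.66 (standard error 0.13, adjusted p = 0.00019), by 0.60 and 0.73 in the lines, and its adjusted p with the DESeq2 Wald test was 0.166.

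The third gene was SRP19, a protein of the signal recognition particle, which brings ribosomes to the ER. It was at 48.3 and 27.9 CPM in SW480 and at 43.5 and 29.7 in SW620, and it fell by 0.67 (standard error 0.15, adjusted p = 0.00108). The annotated span of SRP19 holds the pseudogene XBP1P1 and overlaps REEP5 on the opposite strand, and DERL1 and ERLIN2 also overlap antisense genes. Whether counting used strand is not stated, so reads of these neighbours could be mixed. ERLIN2, DERL1 and SRP19 are all on the study's own list of lowered genes, which was drawn from these samples and is not independent evidence of their direction. A model without the cell line gave each of the 3 an adjusted p of 1.0.

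**Figure D5:**
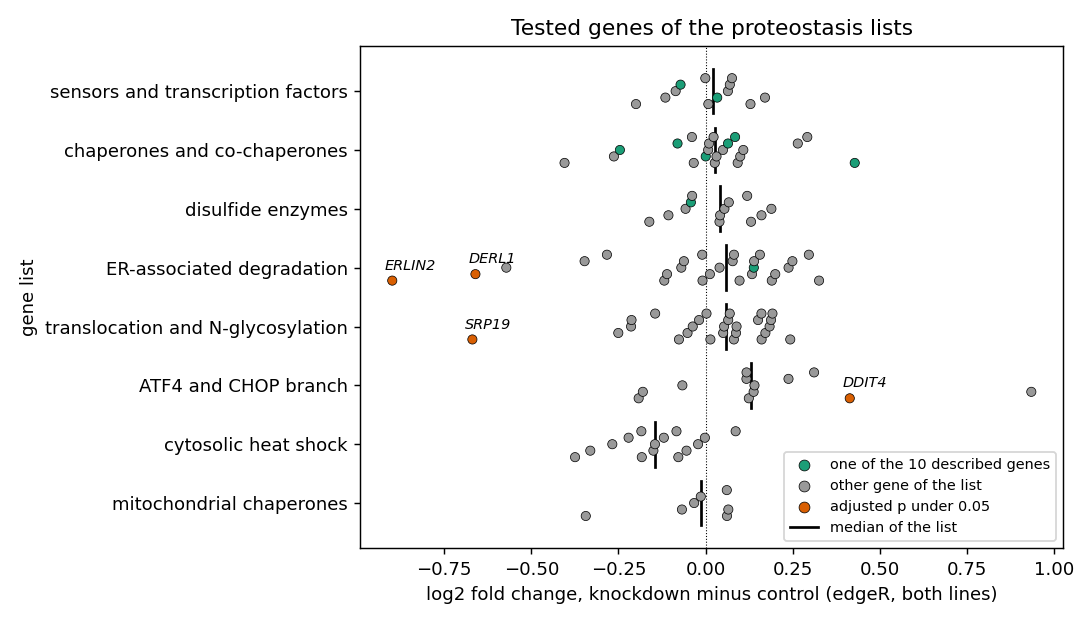
Log2 fold change of SHMT2 knockdown minus control over both lines for each tested gene of 8 lists, with the median of each list as a black bar, the 10 described genes in green and the genes at an adjusted p under 0.05 in orange. The medians of the 5 ER lists lie between 0.02 and 0.06, and the named exceptions are ERLIN2, DERL1 and SRP19 to the left and DDIT4 to the right.

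The promoter elements were also followed outside the 10 genes. In all, 44 gene symbols had an ERSE or ERSE-II in their promoter, 36 of them had a row of counts and 30 were tested. Of the 23 tested that are not among the 10, 0 were called with the knockdown, with a median log2 fold change of -0.01. For example, CANX, the membrane-bound relative of calreticulin, had a log2 fold change of 0.09 (adjusted p = 0.924) and CRELD2 one of -0.26 (adjusted p = 0.67). These 2 examples were chosen after their values were seen. Between the lines 14 of the 23 were called (60.9%), again near the 63.6% of all genes.

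Between the lines, 29 of the 98 tested ER genes were lower and 22 were higher in SW620, or 52.0%, with a median of -0.06. This share was below the 63.6% of all genes tested, so the genes named next describe the 2 lines and say nothing particular to the ER. Among sensors and factors, WFS1, a membrane glycoprotein of the ER, was higher by 2.0 on the log2 scale, while the transcription factor CREB3L2 was lower by 1.97 and MBTPS1, the protease that makes the first cut in ATF6, was lower by 0.88. Of the chaperones, SEC63, which couples HSPA5 to the translocon, was higher by 1.11. Of the disulfide enzymes, ERO1B was lower by 2.36, on 10 and 22 counts in SW620, P4HB was lower by 0.51 and ERP44 was higher by 0.88. In ERAD the ubiquitin-conjugating enzyme UBE2J1 was higher by 1.31, ERLIN1 lower by 0.99 and the mannosidase MAN1B1 lower by 0.87. For translocation and glycosylation, TRAM1 was lower by 1.49, and RPN2 and SSR4 were both higher by 0.76. Every gene in this paragraph passed, and the largest adjusted p was 1.03e-07, that of P4HB.

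The stress programs beside the ER lists are given for comparison. In the ATF4 and CHOP branch, which PERK and other kinases share, 12 of 13 genes were tested, and 0 were lower and 1 was higher with the knockdown. The median log2 fold change was 0.13, with -0.24 in SW480 and 0.49 in SW620. The gene called was DDIT4, an inhibitor of the growth kinase mTORC1, at 121 and 117 CPM in SW480 and at 98.6 and 181 in SW620, with a log2 fold change of 0.41 (adjusted p = 0.0418). The rise was seen in SW620, where the difference was 0.88, and SW480 gave -0.05. No call was left for DDIT4 with no filter on low counts (adjusted p = 0.157), with a filter of 50 counts in 2 libraries (0.422), with the DESeq2 Wald test (1.0) or without the cell line in the model (1.0). Between the lines ATF3 was lower in SW620 by 1.86 and SESN2 by 0.97. VLDLR had 1 and 0 counts in SW480 and 51 and 249 in SW620.

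Cytosolic heat shock genes, which answer to HSF1 and not to the UPR, had a median of -0.15 with the knockdown, and 0 of 15 were called, beside 1.66% of all genes tested. By line the median was -0.24 in SW480 and -0.02 in SW620. In both lines at once, 9 of the 15 had lower values in the knockdown library, beside 3468 of the 14024 genes. Between the lines HSPB1 was lower in SW620 by 1.14 and BAG3 by 1.87. HSPA1B was lower by 3.16 and its near-identical copy HSPA1A was higher by 3.13, and reads of these copies cannot be divided with certainty. Of the 7 mitochondrial chaperones and proteases, 0 were called with the knockdown and the median was -0.01. HSPD1 was the single one called between the lines, higher in SW620 by 0.32 (adjusted p = 0.000962).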

How the data were processed

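The file deposited by the authors is a single matrix of raw counts, 1 row per gene symbol and 1 column per library, with no normalization applied. The submitters' processing notes name Bowtie 0.12.2 and the build hg18, and the labels name TruSeq libraries. RNA-seq and a microarray are both named in the study's text, and the whole numbers with unequal totals are sequencing counts. The counting program and the use of strand are not given in the sources used here. In 28 rows, holding 0.217% of counts, symbols had been turned into dates, and they were kept.

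Library sizes were adjusted by TMM in edgeR 4.0.16 (R 4.3.3), and genes were compared with its two-sided quasi-likelihood test, the model holding treatment and cell line. Genes with 10 counts or more in any 2 libraries were tested, and p was adjusted by the Benjamini-Hochberg method over all of them. The fit has 1 residual degree of freedom and a common dispersion of 0.00819, so p rests on a spread shared by all genes, and nothing says that the cultures were independent. The knockdown and its control share a line, which pairs them (across genes, the deviations of the SW480 pair correlated at 0.961). Single-gene log2 values within a line are ratios of CPM with no prior count, and their 95% intervals cover counting error only. A prior count of 2 was used for list medians within a line, the distances to HSPA5 and the correlation above. Alternatives were the DESeq2 Wald test (version 1.42.0), other size factors, other filters, thinned libraries, either line or treatment alone, and models without the cell line or the treatment.

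Genes named by rule are SHMT2, the 10 genes, ATF6 and EIF2AK3, the 5 genes most like HSPA5, list genes called with the knockdown (up to 6 a list), and the 3 smallest p per list between the lines. The genes and lists were chosen with earlier results of these data known. Promoters are from RefSeq on GRCh38.p14, and transcript lengths and overlaps from GENCODE 29.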

Additional observations from a re-analysis of the deposited data

Results flagged for a closer look

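None of the 10 ER chaperone and UPR genes moved in opposite directions in the lines beyond the counting intervals of both. Outside them, only the list genes named by rule were searched. Among those, HSPD1 had a difference of -0.0837 between knockdown and control in SW480 and of 0.21 in SW620. HSPA9 had -0.0856 and 0.22, both on the log2 scale. ERLIN2 was higher in SW620 than in SW480 between the control libraries (0.38) and lower between the knockdown libraries (-0.48), and DDIT4 was the reverse (-0.30 and 0.62). As lists, the ATF4 and CHOP branch had a median of -0.24 for SW480 and of 0.49 for SW620, and mitochondrial chaperones had -0.17 and 0.17. Each was listed because the direction differed between groups, and the difference itself was not tested. Some list genes outside this search also moved in opposite directions beyond both counting intervals. Examples, picked after their values were seen, are ATF4 (-0.17 in SW480 and 0.40 in SW620) and TXNDC12 (0.25 and -0.36).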

How the results depend on the processing

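The count of 0 of the 10 genes called with the knockdown held under the 6 other models or filters run. With the DESeq2 Wald test, DNAJB9, ERN1, HERPUD1 and SDF2L1 had no adjusted p and so could not be called. The model without the cell line called no gene of all tested, so its count says nothing about these 10. Between the lines, 5 lower and 1 higher held under 5 of 6, and with the DESeq2 Wald test 4 were lower, DNAJB9 having an adjusted p of 0.0591. The knockdown values of HSP90B1 and XBP1, both near 0, changed sign, to -0.0128 with no filter and to -0.0211 after thinning. Calls over all genes with the knockdown were 54 lower and 15 higher with a filter of 50 counts in 2 libraries, 21 and 5 with DESeq2, and 0 and 0 with no replicate block, that is without the cell line. No list gene was called without that block. Thinning added 1 chaperone, DNAJB11. ERAD kept 1 gene lower with the filter of 50 counts and 0 with DESeq2, which gave ERLIN2 and SRP19 no adjusted p, so translocation also had 0. DDIT4 was called after thinning and with DESeq2's size factors, and the ATF4 branch had 0 higher otherwise. The chaperone median was 0.0131 with no filter and 0.0447 without the block. Between the lines, DESeq2 called 2826 genes lower and 2680 higher, among them 5 lower and 3 higher in ERAD, 2 and 2 in the ATF4 branch, and, higher only, 3 sensors, 1 chaperone, 4 in translocation, 1 heat shock gene and 0 mitochondrial chaperones. ERAD had 3 higher with no filter and after thinning, and the ATF4 branch had 3 higher with no filter or the filter of 50 counts and 2 without the treatment term. The sensor median between the lines was -0.163 with no filter, 0.112 with the filter of 50 counts and 0.0984 after thinning, and that of translocation was 0.0171 with DESeq2's size factors or its test, 0.00129, 0.0302 and 0.0241. The causes were not tested, beyond the fewer genes or counts that filters and thinning leave. DNAJB9 and ERN1 had 24 to 150 counts per library, so small changes of these genes were not detectable at this depth.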
